A study of Mus musculus with 14 samples.

Results

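The genes described are 7 that basophils, mast cells and eosinophils use to make the contents of their granules or their surface: CPA3, MCPT8, PRSS34, HDC, PRG2, PRG3 and SIGLECF. They were chosen by name, and all 7 are among the 22842 genes present in both deposited count tables. The study traced the progeny of adult mouse blood stem cells with an inducible label and sequenced single Lin- Tom+ cells, that is, cells without the surface markers of mature lineages that carried the red tracer. Day 3 was 1 mouse (m4539, 190 cells on 2 plates), day 10 was 1 mouse (m4533, 107 cells on 3 plates) and day 17 was 3 mice (m4528 with 288 cells on 4 plates, m605 with 143 on 2 and m606 with 189 on 2), plus 1 plate of 93 cells from m605 and m606 together. The labels used here do not give the driver of the recombinase, the strain, the genotype, the agent that starts tracing or the age of the animals, so the groups are known by day and mouse alone. Gene symbols are written in capitals, as in the tables.

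Basophils and mast cells are the cells of IgE-driven allergy: antigen that cross-links the high-affinity IgE receptor makes them release histamine and proteases stored in granules. In adult bone marrow they arise from progenitors that use GATA2 and C/EBP factors and lie close both to the granulocyte branch and to the branch that makes red cells and megakaryocytes. CPA3 is carboxypeptidase A3, a protease of mast cell granules that basophils and their progenitors also make. MCPT8 and PRSS34 are the serine proteases best known as markers of mouse basophils, and HDC is the enzyme that makes histamine. PRG2 and PRG3 encode major basic proteins of eosinophil granules, and SIGLECF is a surface lectin that marks mouse eosinophils. MPO, the myeloperoxidase of neutrophil granules, and KLF1, a transcription factor of red cell precursors, served to place the cells beside the other branches.

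A cell was kept with at least 500 genes and 10000 counts, which left 1010 of 9357 barcodes. Median counts per kept cell were between 118001 and 286917 in the 5 mice, and summed counts per mouse between 25482791 and 64257177. Levels are in CPM, the counts of a gene scaled to a fixed total per mouse. Mouse m4528 had 131 CPM of the Y-linked EIF2S3Y and 0.156 CPM of XIST, whereas the other 4 mice had at most 0.200 CPM of EIF2S3Y and at least 181 CPM of XIST. This mouse also came in the first count table with the mice of days 3 and 10, and m605 and m606 in the second. All 96 well barcodes were reused on several plates, so a barcode names a cell only together with its plate.

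The 7 genes lie on 5 chromosomes (GRCm38, GENCODE M21). CPA3 is at chromosome 3, 20215620 to 20242181, minus strand, MCPT8 at chromosome 14, 56082166 to 56085273, minus strand, and PRSS34 at chromosome 17, 25298394 to 25300165, plus strand. HDC is at chromosome 2, 126593667 to 126619299, minus strand, and SIGLECF at chromosome 7, 43351341 to 43359531, plus strand. PRG2 (chromosome 2, 84980461 to 84983632) and PRG3 (84988215 to 84993886) are neighbours on the plus strand, 4582 bases apart. The stretch before the start of CPA3, MCPT8 and PRSS34 is shown because these were the members found together in the same cells. The sequences are from RefSeq (GRCm38.p6), 5′ to 3′ on the gene's strand. Capitals mark AGATAA, a letter string of GATA factors, and TGTGGT, one of RUNX factors, or its reverse complement ACCACA.
CPA3, chr3:20242182-20242431, minus strand: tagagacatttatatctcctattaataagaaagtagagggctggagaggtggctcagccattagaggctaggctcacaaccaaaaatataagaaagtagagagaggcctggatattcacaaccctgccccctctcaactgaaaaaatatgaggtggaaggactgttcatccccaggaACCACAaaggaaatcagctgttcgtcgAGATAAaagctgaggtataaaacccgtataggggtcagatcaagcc
MCPT8, chr14:56085274-56085447, minus strand: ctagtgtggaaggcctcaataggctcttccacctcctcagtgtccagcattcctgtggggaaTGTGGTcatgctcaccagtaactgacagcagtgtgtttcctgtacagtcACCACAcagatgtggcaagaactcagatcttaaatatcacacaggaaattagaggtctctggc
PRSS34, chr17:25298144-25298393, plus strand: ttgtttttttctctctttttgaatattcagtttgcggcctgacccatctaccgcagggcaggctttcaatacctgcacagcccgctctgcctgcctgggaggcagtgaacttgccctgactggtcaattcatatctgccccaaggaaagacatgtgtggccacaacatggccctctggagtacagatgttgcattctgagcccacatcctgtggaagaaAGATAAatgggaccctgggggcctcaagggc
For MCPT8, 76 bases of the window that lie inside the annotated gene were left out. In windows from 250 bases before to 50 after the start, on both strands, a GATA string (AGATAA or else TGATAA or else AGATAG) was found in 4 of the 6 members with an entry (CPA3, PRSS34, PRG3 and SIGLECF), beside 25.1% of all 32851 promoters of the table. TGTGGT was found in 4 of 6 (CPA3, MCPT8, PRG3 and SIGLECF), beside 16.8% of all promoters, and TTGCNNAA, a C/EBP string, in 0 of 6, beside 10.8%. These matches are letters in a window and are not evidence of binding.

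The first question was when the effector genes appear among the traced cells. They were nearly absent at day 3, low at day 10 and present in all 3 mice at day 17, except that PRSS34 and PRG2 were near 0 in m605 and PRG2 also low in m606. Counts were summed over the cells of each mouse. With summed cells, more cells that carry a gene and more RNA per carrying cell cannot be told apart.

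The level of CPA3 was 0.380 CPM in the day 3 mouse and 6.04 CPM in the day 10 mouse, and 237, 129 and 234 CPM in m4528, m605 and m606. The 3 late mice were all above both early ones, with a mean of 200 ± 61.4 CPM (SD, n = 3), 33.1-fold over day 10 and 526-fold over day 3. At day 10, 233 of the 242 CPA3 counts were in 1 cell, so the fold over day 10 rests mainly on that cell. HDC had no counts in the day 3 mouse and 0.250 CPM in the day 10 mouse, against 105, 48.4 and 56.9 CPM in the late mice. Its day 17 mean of 70.1 ± 30.5 CPM was at least 676-fold higher than the 3 counts that an observed 0 allows at day 3.

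The basophil proteases varied more widely between the late mice than CPA3 or HDC. MCPT8 had 3 counts in the day 3 mouse (0.104 CPM) and 7.44 CPM in the day 10 mouse, against 266, 96.4 and 400 CPM in the late mice. PRSS34 had 0.380 and 1.12 CPM in the early mice, against 320, 4.36 and 386 CPM in the late ones. Single cells also held most of the day 10 counts, 269 of 298 for MCPT8 and 38 of 45 for PRSS34. Mouse m605 was the lowest of the late mice for both proteases, and for PRSS34 it lay nearer to the day 10 mouse than to m4528 or m606.

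PRG2 had no counts in the day 3 mouse, 0.499 CPM in the day 10 mouse and 181, 0.393 and 2.87 CPM in the late mice, so that a single late mouse held almost all of it. PRG3 had no counts on either early day and 31.5, 4.52 and 4.75 CPM at day 17. SIGLECF had 2 counts in the day 3 mouse (0.0691 CPM), 5.37 CPM in the day 10 mouse and 27.0, 11.6 and 12.4 CPM in the late mice, whose mean was 3.17-fold over day 10. Here too, 212 of the 215 day 10 counts were in 1 cell. On the plate that held cells of m605 and m606 together, CPA3, MCPT8, PRSS34, HDC and SIGLECF had 94.9, 239, 215, 56.8 and 13.5 CPM, PRG3 had 1.79 CPM and PRG2 had no counts. For comparison, MPO had 45.5, 184 and 2794 ± 480 CPM on the 3 days, and KLF1 had 76.3, 149 and 395 ± 122 CPM (SD, n = 3 at day 17).

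**Figure D1:**
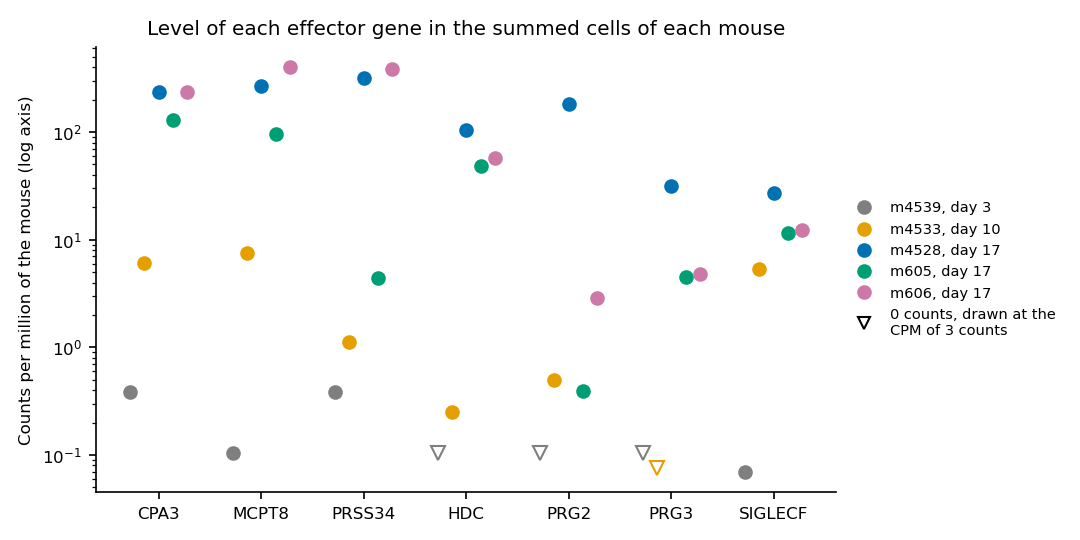
Level of the 7 genes in the summed cells of each mouse, in CPM on a log axis; each point is 1 mouse, coloured by mouse and day, and open triangles mark 0 counts, drawn at the level of 3 counts. CPA3, MCPT8, HDC and SIGLECF have all 3 day 17 mice above both early mice, whereas PRG2 in m605 (0.393 CPM) lies below the day 10 mouse (0.499 CPM).

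In edgeR's quasi-likelihood test of a slope over day, with the count table as a term and Benjamini-Hochberg adjustment, 0 of 16740 genes were called (0%), with 1473 at an unadjusted p under 0.05. None of the 7 members was called in this test. CPA3 had a fitted slope of 9.63 (log2 per 14 days, SE 0.70, adjusted p = 0.143), MCPT8 11.02 (SE 1.29, adjusted p = 0.271), PRSS34 10.83 (SE 3.55, adjusted p = 0.503) and SIGLECF 8.09 (SE 1.72, adjusted p = 0.35). HDC had the lowest adjusted p of all genes, 0.106, and PRG2 and PRG3 had 0.271; the fitted slopes of these 3, which have 0 counts at day 3, depend on the prior count. DESeq2 called 455 genes on the same sums, and edgeR without the table term 18. With 1 mouse left out, the slope of PRSS34 ranged from 3.08 (without m4528) to 16.46 (without the day 3 mouse) and that of SIGLECF from 4.83 (without the day 3 mouse) to 12.37 (without m4528). Because the second table holds day 17 only, the slope with the table term rests at day 17 on m4528 alone, and days 3 and 10 rest on 1 mouse each. Mouse m4528 was also the 1 mouse with a high level of EIF2S3Y, which cannot be told apart from day 17 in this slope. Without m4528 the slope rests on the day 3 and day 10 mice alone and holds nothing of day 17. For SIGLECF these had 2 and 215 counts, and 212 of the 215 were in 1 cell.

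Of the fixed list of 23 receptor genes, 15 were tested and 13 had a positive slope (median log2 2.30, beside 0.03 over all genes). Among 12 genes of IgE receptor signalling 6 had one (median 0.04), and among 12 histamine, heparin and lipid mediator genes 5 did (median -0.03). A positive slope was also fitted for 6 of 8 cytokines and chemokines (median 2.30) and 13 of 22 transcription factors (median 0.49). FCER1A, the ligand-binding chain of the IgE receptor, had 0.0691, 0.0749 and 45.3 ± 24.5 CPM on days 3, 10 and 17. FCER1G, the signalling chain that many other blood cells share, had 203, 176 and 532 ± 177 CPM, and KIT, the stem cell factor receptor that mast cells keep, 137, 159 and 85.7 ± 25.9 CPM. CD63, also on the receptor list, had 263, 188 and 188 ± 35.9 CPM and did not rise. Of 12 listed mast cell and other granule proteases, 4 were in the tables. MCPT2, a protease of mucosal mast cells, had 0, 0.0499 and 0.0266 ± 0.0240 CPM on the 3 days. GZMB, a granzyme, had no counts on the early days and 4.6 ± 7.66 CPM at day 17.

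The level of a gene in a summed mouse does not say how many cells carry it. With a threshold of more than 10 counts per cell, the share of cells that passed varied between plates of the same mouse, over the widest range for PRSS34, MCPT8 and PRG2. On the 5 day 17 plates that held a cell with more than 1000 counts of PRSS34, between 15.1% and 100% of cells had more than 10 counts of it (238 of 437 cells). On the other 4 day 17 plates it was between 0 and 2.08% (1 of 276 cells). On m4528 plate 9 all 70 of 70 cells passed, with a median of 48 counts, while plates 7 and 8 of the same mouse held no count of PRSS34 in any kept cell.

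MCPT8 and PRG2 also had higher shares on the plates with a very high cell, although for MCPT8 the ranges nearly met. More than 10 counts of MCPT8 were found in 9.47% to 87.1% of cells on 6 plates with a cell over 1000 counts (197 of 532 cells) and in 3.92% to 7.32% on the other 3 (10 of 181). For PRG2 it was 51.0% and 72.9% on 2 plates (77 of 121 cells) against 0 to 1.18% on the other 7 (2 of 592). For CPA3 the ranges overlapped: it passed in 7.06% to 10% of cells on the 4 plates with a cell over 1000 counts (29 of 343) and in 3.66% to 16% on the other 5 (37 of 370). HDC passed in 8.33% to 17.6% of cells on the 9 day 17 plates, SIGLECF in 2.08% to 12.9% and PRG3 in 0 to 2.35%. Counts below the threshold were also widespread on some plates for other members: at least 1 count of PRG3 was in 64.7% and 58.6% of cells on m4528 plates 8 and 9, whose highest cells had 769 and 910, against at most 25.9% on the other day 17 plates. At least 1 count of CPA3 was in 75.3% of cells on m4528 plate 6, and of HDC in 70% on plate 9.

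**Figure D2:**
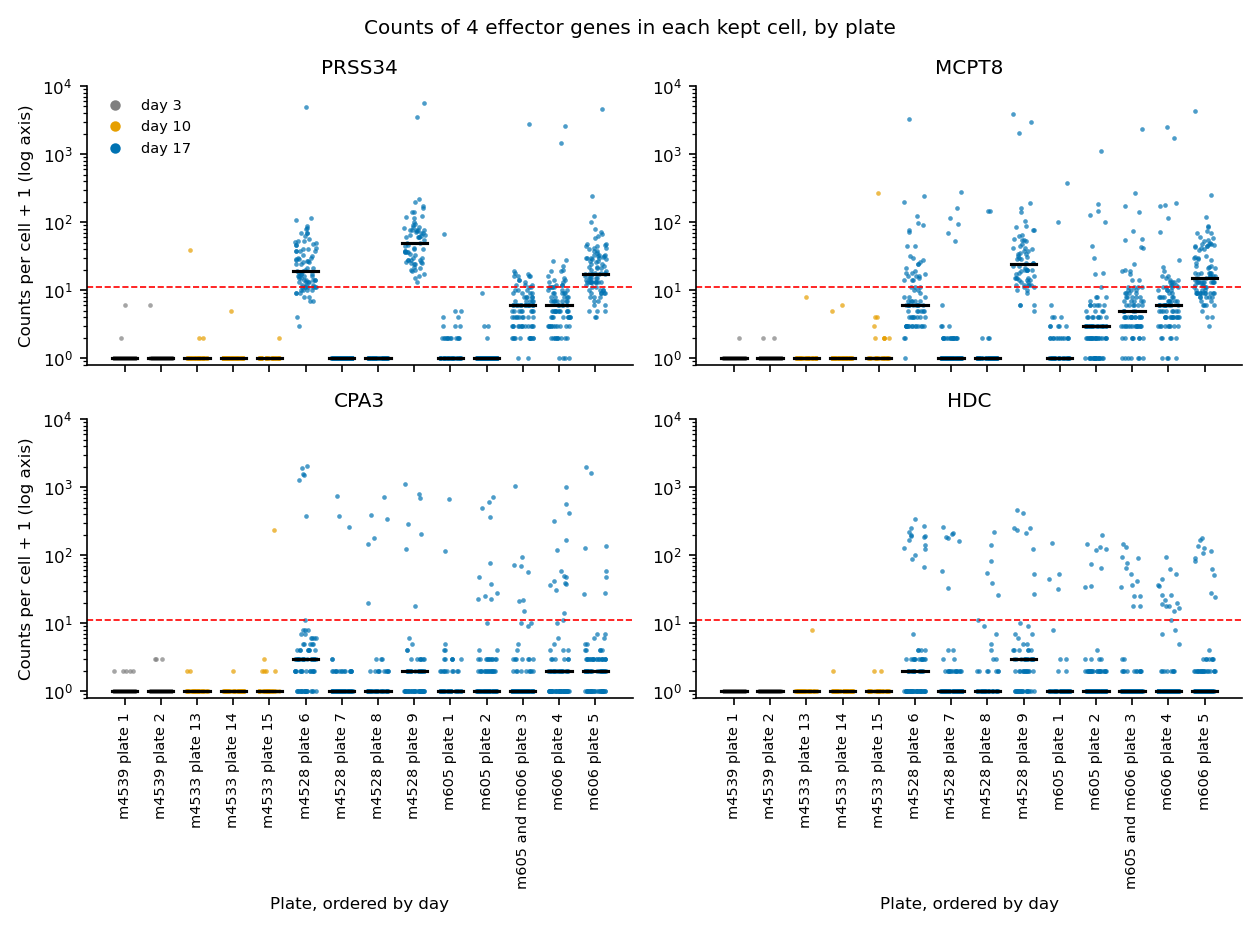
Counts per cell plus 1, on a log axis, of PRSS34, MCPT8, CPA3 and HDC in each kept cell, by plate in order of day; black bars are plate medians and the dashed red line separates cells with more than 10 counts. For PRSS34 the median reaches 48 counts on m4528 plate 9, where all 70 cells lie above the line, and no cell of m4528 plates 7 and 8 has a count, whereas for CPA3 the plate medians lie between 0 and 2.

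Leaving aside the cells with more than 1000 counts of PRSS34 or MCPT8, the other cells of a plate held between 12.4% and 34.2% of its PRSS34 counts over the 5 plates. The ratio of PRSS34 to MCPT8 counts in the cells over 1000 counts of either gene and in the rest of the same plate was 1.54 and 1.47 on m4528 plate 6, 1.08 and 1.01 on m606 plate 5, and 1.04 and 1.73 on m4528 plate 9, where the high cells are 3 and include the one with 2065 counts of MCPT8 and 76 of PRSS34. On the plate of both mice it was 1.16 and 0.400, and on m606 plate 4 it was 0.965 and 0.459. The same barcode on another plate could also hold counts: the day 10 cell with 38 counts of PRSS34, 95% of what its plate held, shared its barcode with the cell of m4528 plate 9 that had 5626. The day 10 cell with 12 counts of PRG2 shared its barcode with a day 17 cell that had 4503. The cause of the low counts was not tested.

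A second threshold was therefore added after these values had been seen, and is called the plate and barcode rule: a cell carried a gene with more than 10 counts that were also more than 5% of the highest count of the gene on the same plate and among the same barcode of the same table. It can hide a cell that truly holds a low level on a plate with a very high one, and its cut in counts differs between plates and mice. Under it the kept cells of day 17 that carried a gene numbered 45 for CPA3, 32 for MCPT8, 9 for PRSS34, 92 for HDC, 4 for PRG2, 11 for PRG3 and 60 for SIGLECF, of 713. With more than 10 counts alone the numbers were 66, 207, 239, 92, 79, 11 and 60, so that HDC, PRG3 and SIGLECF kept the same number and PRSS34 went from 239 cells to 9. For SIGLECF this was fixed in advance, since 5% of its highest count of 212 removes no cell with more than 10 counts. HDC had highest counts of only 94 to 463 on the day 17 plates, so the rule cut little there. The equal numbers are therefore no test of these genes. Just above the first threshold, 92 of the 240 PRSS34 cells of all days had at most 20 counts, as did 84 of 208 for MCPT8, 33 of 80 for PRG2 and 21 of 61 for SIGLECF, against 5 of 67 for CPA3, 8 of 92 for HDC and 0 of 11 for PRG3.

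Cells with stem cell genes served as a reference and were those with more than 10 counts of at least 4 of 11 stem cell genes that carried neither KLF1 nor MPO by the plate and barcode rule. There were 154 of them at day 17 (median 96018 counts, against 163241 in the other cells). More than 10 counts of PRSS34 were present in 27.3% of these stem-type cells, of MCPT8 in 12.3% and of PRG2 in 5.84%, so that a share of this size is not read as expression here. HDC, PRG3 and SIGLECF passed in 0 of the 154 (upper exact 95% limit 2.37%), and CPA3 in 1. Under the plate and barcode rule only CPA3 passed, in that 1 cell. The members' shares in the other day 17 cells were then 16.5% for HDC, 10.7% for SIGLECF, 7.87% for CPA3, 5.72% for MCPT8 and 1.61% for PRSS34. Among the 52 stem-type cells of day 10, SIGLECF passed under both thresholds in 1, which had 212 counts of it, and no other member passed.

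With this rule the share of cells that carried at least 1 member was 20.1% in m4528, 18.2% in m605 and 19.0% in m606, a mean of 19.1% ± 0.98 (SD, n = 3). The day 3 mouse had 0 of 190 cells, which allows a share of up to 1.58%, and the day 10 mouse 1.87%. The rule's cut in counts differs between plates and mice, so these close shares are not taken at like counts. With more than 10 counts alone the late mice had 61.5%, 20.98% and 61.4%, and with more than 50 counts 29.2%, 9.09% and 17.5%. With each cell thinned to 20000 counts and at least 2 counts required they had 60.8%, 22.1% and 69.3%. Late and early mice were compared by exact permutation, two-sided, which gave p = 0.1 with the rule, the smallest that the 10 splits allow, and p = 0.2 without it (Benjamini-Hochberg adjusted over 8 shares, 0.133 and 0.267).

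CPA3 was carried by 6.94%, 6.29% and 5.82% of cells in m4528, m605 and m606 (exact permutation p = 0.1, smallest possible). MCPT8 was carried by 4.86%, 4.90% and 3.70% (exact permutation p = 0.1), and its summed level was 400 CPM in m606 and 96.4 in m605. The rule's cut rises with the highest cell, which had 377 and 1108 counts on the m605 plates and 2479 and 4283 on those of m606. These shares are therefore taken at unlike counts in the mice. At a fixed threshold of more than 50 counts they were 11.5%, 4.90% and 10.1%, and at more than 10 counts 33.7%, 7.69% and 43.9%. HDC was carried by 13.2%, 9.09% and 14.3% (exact p = 0.1), SIGLECF by 8.33%, 8.39% and 7.94% (exact p = 0.1) and PRG3 by 1.39%, 1.40% and 2.12% (exact p = 0.1). The rarest were PRSS34 with 1.04%, 0.699% and 2.12% (exact p = 0.2) and PRG2 with 1.04%, 0 and 0.529% (exact p = 0.4). These are 3, 1 and 4 cells for PRSS34 and 3, 0 and 1 cells for PRG2. At more than 50 counts SIGLECF was in 4.86%, 0.699% and 0% of cells, against 0.935% in the day 10 mouse (exact permutation p = 0.9). Its near-equal shares by the rule therefore rest on low counts. At that threshold CPA3 had 6.94%, 4.90% and 6.35% and HDC 11.8%, 6.29% and 6.35%, each above both early mice. PRG3 had 1.39%, 0.699% and 0%. With 2% of the highest count in place of 5%, PRSS34 was carried by 14, 1 and 6 cells, a mean of 2.91% against 1.29%, which puts it above PRG3 at 1.63%; the gain was largest in m4528.

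**Figure D3:**
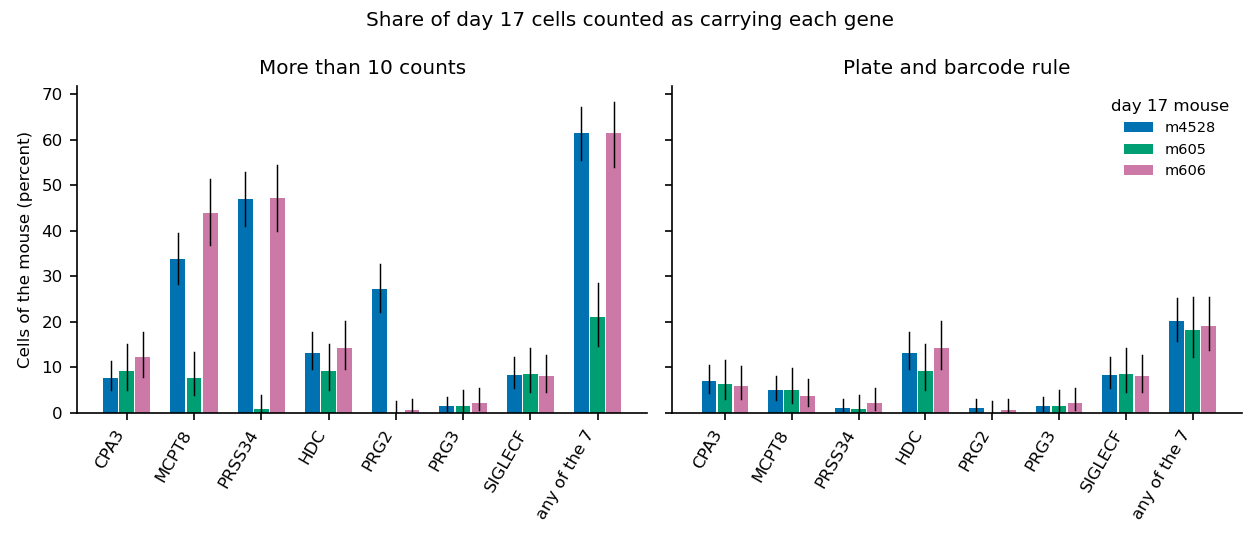
Percent of the cells of each day 17 mouse counted as carrying each gene, with more than 10 counts (left) and by the plate and barcode rule (right); bars are mice and lines are exact 95% binomial intervals, which cover counting error only. PRSS34 goes from 46.9%, 0.699% and 47.1% on the left to 1.04%, 0.699% and 2.12% on the right. HDC, whose highest count of 463 makes the rule's cut low, is the same in both.

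Before day 17 only 2 cells carried a member by this rule, both on plate 15 of the day 10 mouse. The first had 233 counts of CPA3, 269 of MCPT8, 1 of HDC and 5453 of MPO in 938144 counts. The second had 212 counts of SIGLECF with 33 of MPO in 382268 counts.

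Which effector genes shared a cell was counted next. Of the 139 day 17 cells that carried at least 1 member, the most frequent kinds were HDC alone (32 cells), SIGLECF alone (21), HDC with SIGLECF (17), CPA3 alone (10), CPA3 with HDC (8) and MCPT8 with HDC (7). The set of CPA3, MCPT8, PRSS34 and HDC together was found in 6 cells. All 9 PRSS34 cells carried both CPA3 and MCPT8 (9 of 9, exact 95% interval 66.4% to 100%) and 8 carried HDC. With more than 10 counts alone, 25 of 239 PRSS34 cells had CPA3 (10.5%) and 168 had MCPT8 (70.3%), so this co-detection rests on the rule chosen after seeing the data.

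MCPT8 was carried by more cells than PRSS34. Of 32 MCPT8 cells, 17 carried CPA3 (53.1%, 34.7% to 70.9%, against 4.11% of the other cells) and 25 carried HDC (78.1%, against 9.84%). Of 45 CPA3 cells, 27 carried HDC (60%, 44.3% to 74.3%, against 9.73%), 17 MCPT8 (37.8%, against 2.25%) and 16 SIGLECF (35.6%, against 6.59%). HDC was also carried by 32 of 60 SIGLECF cells (53.3%, against 9.19%) and 8 of 11 PRG3 cells. All 4 PRG2 cells carried PRG3, its neighbour on chromosome 2, and 0 of the 4 carried PRSS34. The part of depth in the shares of shared cells was not tested.

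The cells with a basophil protease (PRSS34 or MCPT8) and those with CPA3 or PRG2 overlapped in part. Of 48 CPA3 or PRG2 cells, 17 carried a protease (35.4%, 22.2% to 50.5%, against 2.26% of the others), which is 6 of 22 in m4528, 4 of 9 in m605 and 6 of 12 in m606, the rest being on the plate of both mice. Seen from the other side, 17 of 32 protease cells carried CPA3 or PRG2, and 15 did not. With more than 10 counts alone it was 81 of 132 (61.4%, against 33.9%), and 197 protease cells had neither CPA3 nor PRG2. At that threshold 238 of 239 PRSS34 cells and 197 of 207 MCPT8 cells lay on plates with a very high cell. By the rule, PRSS34 and PRG2 shared no cell, but with 9 and 4 carrying cells the exact interval for the PRG2 cells reaches 60.2%.

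The cells with the highest counts were of several kinds. There were 7 cells with more than 1000 counts of PRSS34, from m4528, m606 and the plate of both mice, at 1464 to 5626. All 7 had 1733 to 4283 counts of MCPT8, 572 to 1955 of CPA3, 36 to 250 of HDC, 84 to 431 of MS4A2, the beta chain of the IgE receptor, and 27 to 419 of GATA2. FCER1A passed 10 counts in 6 of the 7 (0 to 1664), as did CD200R3, a receptor known from basophils (0 to 451). KIT was between 0 and 15 counts, EPX, the eosinophil peroxidase, at most 1, and MPO between 56 and 1387 in cells of 65488 to 214789 counts. The cell of m605 with 1108 counts of MCPT8 had no PRSS34 count but 719 of CPA3, 273 of FCER1A and 279 of MS4A2. The cell of m4528 plate 9 with 2065 counts of MCPT8 was unlike these: it had 1 count of CPA3, 1 of FCER1A, none of MS4A2, 76 of PRSS34, 51 of KIT and 2072 of MPO.

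Another 5 cells, 4 of them on m4528 plate 6, had 1278 to 2058 counts of CPA3 with only 6 to 246 of MCPT8 and 20 to 241 of PRSS34. They held 116 to 334 counts of HDC, 1348 to 3607 of MPO and 18 to 780 of ELANE, the neutrophil elastase. FCER1A passed 10 counts in 1 of the 5 and MS4A2 in 2. The 2 cells with more than 1000 counts of PRG2 (4502 and 4503, both in m4528) had 769 and 910 counts of PRG3, 224 and 124 of EPX, 19 and 17 of CPA3, and 52 and 29 of MPO. Their totals of 34738 and 49839 counts were below the median of the mouse. That with 4503 also had 211 counts of FCER1A, 95 of MS4A2 and 174 of PRSS34, on a plate whose median PRSS34 count was 48.

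**Figure D4:**
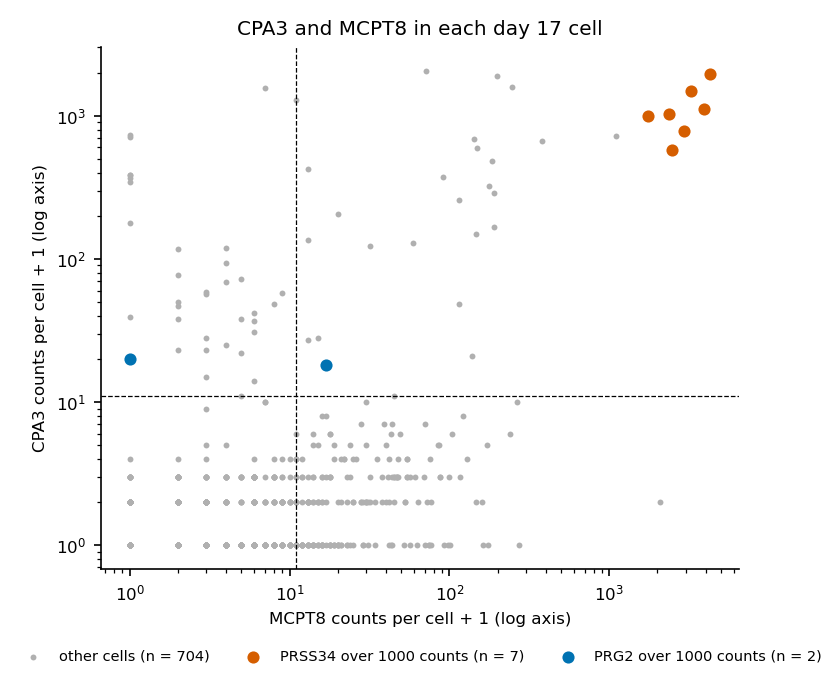
CPA3 against MCPT8 in the 713 day 17 cells, as counts plus 1 on log axes; points are cells, orange where PRSS34 exceeds 1000 counts, blue where PRG2 does, and dashed lines mark more than 10 counts. The 7 PRSS34 cells lie at the upper right with at least 1733 counts of MCPT8 and 572 of CPA3, and the 2 PRG2 cells have 19 and 17 counts of CPA3.

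The overlap with the other branches was counted for KLF1 and MPO. At more than 10 counts, MPO was in all 354 of 354 cells with at least 1 member but also in 97.2% of the other day 17 cells, and KLF1 in 103 of 354 (29.1%) and 23.1% of the others. With the plate and barcode rule for every gene, MPO was carried by 102 of 139 member cells (73.4%, exact 95% interval 65.2% to 80.5%) and 13.8% of the other cells. In m4528, m605 and m606 the share among member cells was 79.3%, 69.2% and 69.4%. KLF1 was carried by 26 of 139 (18.7%, 12.6% to 26.2%), against 22.3% of the others, and by 17.2%, 15.4% and 19.4% in the 3 mice. Both were carried by 6 of 139 cells (4.32%), against 2.26%. The thresholds are on counts, and member cells by the rule had higher median totals than the others: 334771 against 135160 in m4528, 150464 against 113937 in m605 and 222169 against 106065 in m606. The part of depth in these shares was not tested.

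By member, HDC cells carried MPO in 85.9% and KLF1 in 10.9%, and MCPT8 cells in 87.5% and 12.5%. CPA3 cells carried MPO in 62.2% and KLF1 in 31.1% (exact 95% interval 18.2% to 46.6%), and SIGLECF cells in 70.0% and 28.3%; the differences between members were not tested, since their cells overlap. GATA2, a factor that basophil and mast cell progenitors need, was carried by 73.3% of CPA3 cells (against 36.1% of the others) and all 9 PRSS34 cells, but by 29.3% of HDC cells (against 39.8%). MS4A2 was carried by 9 of 9 PRSS34 cells, 37.8% of CPA3 cells, 34.4% of MCPT8 cells and 19.6% of HDC cells.

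Cells with at least 1 member by the plate and barcode rule were then compared with the other cells of the same mouse over all genes, with counts summed per mouse (58 against 230, 26 against 117 and 36 against 153 cells). The calls included the neutrophil granule genes MPO and CTSG among the higher and the platelet gene PF4 and the carbonic anhydrases CAR1 and CAR2 among the lower. Of 15977 genes, edgeR's quasi-likelihood test with the mouse as a block called 14 (0.0876%), 10 higher and 4 lower, and 2 of the 10 were members, which set the cells and support nothing. MPO was 7038 ± 652 against 1373 ± 211 CPM (log2 2.56, SE 0.09, edgeR adjusted p = 0.0303; 3 of 3 mice).

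CTSG, the cathepsin G of neutrophil granules, was 3966 ± 798 against 543 ± 67.0 CPM (log2 3.05). PRSS57, another granule serine protease, was 613 ± 115 against 59.0 ± 26.1 CPM (log2 3.64), and CST7, a cysteine protease inhibitor, 938 ± 235 against 111 ± 8.48 CPM (log2 3.24). NKG7 (log2 2.87), ALAS1, an enzyme of haem synthesis (2.70), CLEC12A, a myeloid lectin (2.49), and PLAC8 (2.09) were also higher in 3 of 3 mice. Lower were LMNA, the nuclear lamin A (5.18 ± 1.89 against 129 ± 53.7 CPM, log2 -4.39), PF4, a platelet chemokine (54.0 ± 17.4 against 781 ± 421 CPM, log2 -3.57), and the carbonic anhydrases CAR2 (635 ± 98.0 against 3704 ± 242 CPM, log2 -2.36) and CAR1 (log2 -2.02). The IgE receptor chains missed the threshold, with MS4A2 at 163 ± 52.6 against 1.40 ± 0.568 CPM (adjusted p = 0.0522) and FCER1A at 166 ± 75.0 against 3.04 ± 2.89 CPM (adjusted p = 0.0634). KLF1 was 114 ± 19.5 against 482 ± 148 CPM (log2 -1.84, adjusted p = 0.110).

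By list, 11 of 13 neutrophil genes tested were fitted higher (median log2 3.05, beside -0.03 over all genes; MPO and CTSG called). Of 13 erythroid genes 1 was fitted higher (median -2.63; CAR1 and CAR2 called lower), of 9 megakaryocyte genes 0 (median -2.75; PF4 called lower), and of 11 stem cell genes 0 (median -2.47; 0 called). Of the pathway's own lists, 13 of 15 receptors (median 0.92), 11 of 11 histamine, heparin and lipid mediator genes (median 0.94) and 8 of 8 cytokines and chemokines (median 1.13) were fitted higher, with 0 called in each. Among 12 genes of IgE receptor signalling 8 were fitted higher (median 0.31), and among 22 transcription factors 12 were (median 0.24), also with 0 called. Fitted higher too were 2 of 3 mast cell and other granule proteases (CTSG called) and 2 of 2 eosinophil granule genes (0 called). The carrying cells were also deeper, with medians of 334771 against 135160 counts in m4528, 150464 against 113937 in m605 and 222169 against 106065 in m606; the part of depth in these differences was not tested. With more than 10 counts alone, 0 of 15885 genes were called (0%; edgeR, 1319 at an unadjusted p under 0.05, DESeq2 450), and MPO was 4370 ± 1293 against 1161 ± 124 CPM (log2 1.93, adjusted p = 0.454). At 2% of the highest count in place of 5% the number of calls was 0, and at 10% it was 24.

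Each member with enough cells was then taken alone. The 20, 9 and 11 CPA3 cells of m4528, m605 and m606 were compared with the other cells of the same mouse, and MCPT8, PRSS34 and FCER1A were among the higher calls and LY86 and LY6C2 among the lower. Of 15333 genes 11 were called (0.0717%), among them CPA3 itself, which set the cells. MCPT8 had 2099, 1371 and 4999 CPM in the CPA3 cells and 102, 26.3 and 103 CPM in the others, higher in 3 of 3 mice (log2 5.38, SE 0.30, edgeR adjusted p = 0.0213). PRSS34 had 2756, 52.0 and 4897 CPM against 102, 1.74 and 94.2, higher in 3 of 3 mice, but in m605, where PRSS34 had 111 counts in all, 66 of them were in 1 cell (log2 5.29, SE 0.25, adjusted p = 0.0173). Few cells held most of these counts. Single CPA3 cells of m4528 had 3229, 3923 and 2924 counts of MCPT8 and 4983, 5626 and 3543 of PRSS34. In m606 such cells had 1733, 2479 and 4283 of MCPT8 and 2601, 1464 and 4635 of PRSS34. In m605 1 cell had 1108 of MCPT8. By the rule fewer CPA3 cells carried MCPT8 than did not.

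FCER1A was 625 ± 284 against 3.80 ± 4.19 CPM (log2 8.11, SE 0.69, adjusted p = 0.0478) and RNASE12, a ribonuclease family gene, 139 ± 149 against 1.06 ± 0.979 CPM (log2 7.06). PLAC8 was 5712 ± 2020 against 2353 ± 395 CPM (log2 1.38). The 5 lower genes were LY86, a partner of a Toll-like receptor relative on monocytes and B cells (2.49 ± 1.17 against 193 ± 39.9 CPM, log2 -6.07), RHD, a red cell membrane protein (log2 -5.26), IGHM, the immunoglobulin mu chain (log2 -5.08), the globin HBB-BS (log2 -4.22) and LY6C2, a monocyte surface antigen (133 ± 33.7 against 1289 ± 35.4 CPM, log2 -3.15). Reads of HBB-BS and LY6C2 may be shared with near-identical copies. HDC was 367 ± 128 against 48.6 ± 19.2 CPM (log2 3.09, adjusted p = 0.0746), MS4A2 593 ± 215 against 4.37 ± 3.30 CPM (adjusted p = 0.120), SIGLECF 83.8 ± 17.2 against 12.5 ± 7.92 CPM (adjusted p = 0.296) and GATA2 439 ± 67.7 against 137 ± 50.7 CPM (adjusted p = 0.295), each higher in 3 of 3 mice but not called.

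Of the 9 monocyte genes tested in CPA3 cells 0 were fitted higher (median log2 -4.13, beside -0.27 over all genes; LY6C2 and LY86 called lower), and of 13 neutrophil genes 5 were (median -0.64). MPO was 4985 ± 752 against 2646 ± 463 CPM (log2 1.07, adjusted p = 0.0866) and ELANE 1170 ± 189 against 1140 ± 151 CPM (log2 0.18). The number of calls was 1, 2 and 3 without m4528, m605 and m606 in turn, each with 1 mouse fewer in the fit, and 12 among cells of at least 50000 counts. DESeq2 called 680 genes.

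In the 14, 7 and 7 MCPT8 cells 3 of 15196 genes were called (0.0197%): MCPT8 itself, CAR1 with 56.2 ± 29.5 against 1396 ± 744 CPM (log2 -4.44, SE 0.19, adjusted p = 0.00446) and PLAC8 with 7166 ± 2572 against 2297 ± 429 CPM (log2 1.79, adjusted p = 0.0260). PRSS34 (log2 5.51) and MPO (7488 ± 492 against 2502 ± 551 CPM, log2 1.80) had an adjusted p of 0.0504 each, and CPA3 was 2468 ± 1832 against 81.5 ± 67.4 CPM (adjusted p = 0.136). Without m4528, m605 and m606 the calls were 9, 5 and 1. With more than 10 counts in place of the plate and barcode rule, and with the rule at 2%, 0 genes were called.

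HDC cells (38, 13 and 27) gave 0 calls of 15691 genes (0%) in edgeR, with 2676 at an unadjusted p under 0.05, a lowest adjusted p of 0.0696, and 1601 calls in DESeq2. MPO was 7735, 7277 and 8267 CPM in them against 1928, 1417 and 1507 in the other cells, and MS4A3, a membrane protein of granulocyte progenitors, 3036 ± 307 against 279 ± 99.2 CPM. CPA3 was 833 ± 231 against 43.9 ± 6.88 CPM, MCPT8 973 ± 610 against 76.3 ± 36.7 CPM, and CEBPE, a granulocyte transcription factor, 115 ± 34.5 against 5.87 ± 5.72 CPM. Each of these 5 genes was higher in the HDC cells in 3 of 3 mice, and none passed the adjusted threshold. How many of all tested genes were higher in 3 of 3 mice was not counted.

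SIGLECF cells (24, 12 and 15) gave 0 calls of 15429 genes (0%) in edgeR, with 2208 at an unadjusted p under 0.05, a lowest adjusted p of 0.0559, and 932 calls in DESeq2. CPA3 was 842, 623 and 1159 CPM in SIGLECF cells against 147, 94.5 and 135 CPM in the others, and CEBPE 121 ± 46.5 against 16.1 ± 6.31 CPM. EPX was 13.7 ± 14.8 against 1.90 ± 1.79 CPM. PRG2 was higher in SIGLECF cells in 1 of 3 mice only.

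**Figure D5:**
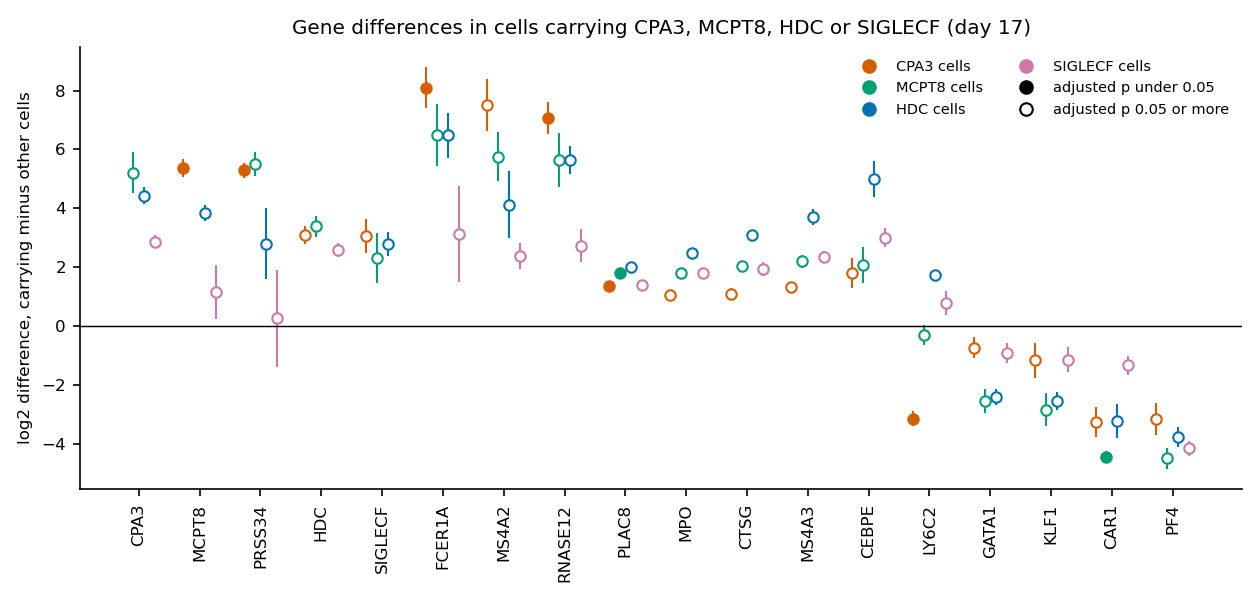
Fitted log2 difference, with its standard error, of 18 genes between cells that carry CPA3, MCPT8, HDC or SIGLECF by the plate and barcode rule and the other cells of the same 3 day 17 mice; filled points have an edgeR adjusted p under 0.05 over all genes and open points do not. FCER1A is 8.11 and LY6C2 -3.15 in CPA3 cells, CAR1 is -4.44 in MCPT8 cells, and no point of HDC or SIGLECF cells is filled.

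Cells with more than 10 counts of a basophil protease but of neither CPA3 nor PRG2 were compared with cells of the opposite kind, as the genes' pairing proposes (83 against 27, 7 against 9 and 89 against 9 cells). At this threshold 27.3% of the stem-type cells of day 17 also passed for PRSS34. Of the cells that passed for PRSS34, 238 lay on plates with a very high cell and 1 on the others. The protease set is therefore not read as a kind of cell. In edgeR 0 of 12759 genes were called (0%), with 626 at an unadjusted p under 0.05 and 55 calls in DESeq2. HDC was 116, 293 and 48.9 CPM in the protease cells and 59.1, 64.6 and 42.7 CPM in the others (log2 1.02, SE 0.60, adjusted p = 1). SIGLECF was 12.4, 42.1 and 9.16 against 24.5, 58.9 and 49.6 CPM, lower in 3 of 3 mice (log2 -1.37, SE 0.87, adjusted p = 1). Under the plate and barcode rule this contrast could not be fitted, since 15 protease cells in all lack CPA3 and PRG2.

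The genes whose pattern was most like each member were ranked by Pearson r of log2(counts per 10000 + 1) over the 713 day 17 cells, as the mean of r in the 2 tables, among 10477 genes. These are descriptions over cells that share plates, and depth enters each of them. For CPA3 they were MS4A2 (0.67), RNASE12 (0.60), FCER1A (0.58), MCPT8 (0.56) and HDC (0.53). For MCPT8 they were PRSS34 (0.76), FCER1A (0.66), MS4A2 (0.62), CD200R3 (0.61) and RNASE12 (0.60), and for PRSS34 they were MCPT8 (0.76), CD200R3 (0.68), FCER1A (0.66), MS4A2 (0.56) and CYP11A1 (0.55), an enzyme of steroid synthesis.

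For HDC they were MS4A3 (0.66), FCGR3, a low-affinity IgG receptor (0.60), CTSG (0.59), CST7 (0.59) and AP3S1 (0.56), of which MS4A3 and CTSG are on the neutrophil list. For SIGLECF the values were low, with CEBPE (0.35), RAB44 (0.33), PLAC8 (0.32), NKG7 (0.32) and CPA3 (0.30). PRG2 was nearest to PRG3 (0.60), at 0.90 in the first table, which holds both cells of high PRG2, and 0.30 in the second. The next gene for PRG2 was MOGAT2 at 0.38, and the highest value for PRG3 other than PRG2 was ABHD2 at 0.32.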

How the data were processed

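Single cells were sorted into 96-well plates and read from the 3′ end of polyadenylated RNA by a modified Smart-seq2 method, per the labels' protocols. The deposited values are raw counts per gene and well barcode in 2 tables, aligned to GRCm38 per the submitters' processing notes; the aligner, the counter and any molecular identifiers stand as not given in the sources used here. Cells were kept at 500 genes and 10000 counts, no doublet caller was run, and 0 columns matched no sample. Counts were summed per mouse, and per mouse and set of cells, and tested with edgeR 4.0.16 (R 4.3.3) by its quasi-likelihood test with TMM scaling, its default filter on low counts and Benjamini-Hochberg adjustment at 0.05 over all genes tested, with the mouse as a block between sets of cells. DESeq2 1.42.0 was an alternative. All adjusted p-values in the text are edgeR's. The plate of m605 and m606 together entered counts of cells but no fit by mouse. Replicates are mice. In the fits between sets of cells, p-values measure the spread between these mice. The slope over day differs, since neither early day has a replicate mouse. With the count table as a term, its p-value mixes the difference between m605 and m606 with the departure of the first table's mice from a straight line. It therefore does not measure the spread between mice at the days compared. The plate numbers in the labels pair no mice. The scripts were tested on simulated data.

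The members and gene lists were chosen with earlier results of these data known. The plate and barcode rule, the comparisons of CPA3, MCPT8, HDC and SIGLECF cells, and the use of the rule for KLF1 and MPO in reference cells (the planned definition left 1 cell at day 17) were chosen after seeing the data. Genes named are the members, KLF1, MPO, for each fit the 10 non-members with the largest change among those called with 1 sign in every mouse, from each list those called or else up to 4 with the highest mean CPM at day 17, and the 5 most alike genes of each member; RHD, IGHM and similar names come from this rule, and the markers in the single high cells from the lists. Intervals are exact 95% binomial; these and the floor of 3 counts cover counting error only, since several counts may come from 1 molecule. Median counts per kept cell, 118001 to 286917, set how low a level could be seen. GENCODE M21 gave gene positions.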

Additional observations from a re-analysis of the deposited data

Results flagged for a closer look

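Barcodes left out for too few genes or counts held more than 10 counts of 3 members at day 17. Of the 4991 such barcodes, 20 had more than 10 counts of MCPT8 (highest 101), 23 of PRSS34 (highest 121) and 2 of PRG2 (highest 54). None had more than 10 counts of CPA3, HDC, PRG3 or SIGLECF, whose highest counts were 7, 5, 3 and 2. Among the left-out barcodes of the day 3 mouse, taken as the control, no member had a count, and among those of the day 10 mouse 2 had more than 10 counts of PRSS34. The cause was not tested.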

How the results depend on the processing

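Numbers of called genes (adjusted p under 0.05) varied with the tool more than with any other choice tried. DESeq2 called 455 genes for change with day, 450 for carrying cells over 10 counts, 55 for protease cells, 680 for CPA3 cells, 830 for MCPT8 cells, 1601 for HDC cells and 932 for SIGLECF cells, against 0, 0, 0, 11, 3, 0 and 0 with edgeR. Without the replicate block, that is, without the mouse as a term, edgeR called 2 for carrying cells, 1 for protease cells, 5 for MCPT8 cells, 52 for HDC cells and 3 for SIGLECF cells; for CPA3 cells it called 9. With no filter on low counts the calls were 3 for protease cells, 25 for CPA3 cells, 10 for MCPT8 cells, 43 for HDC cells and 23 for SIGLECF cells, and with RLE size factors 5 for SIGLECF cells. For day, there were 18 calls with no table term and 1 for days 3 and 10 against day 17. Leaving out 1 mouse gave 1 to 3 calls for CPA3 cells and 1 to 9 for MCPT8 cells.

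Choices about which cells carry a gene, several made after seeing the data, moved other values. Carrying cells had 14 calls under the plate and barcode rule and 24 at 10%, protease cells 1 at 2%, and MCPT8 cells 0 over 10 counts alone, 0 at 2% and 6 at 10%. Co-detection of a protease in CPA3 or PRG2 cells was 35.4% under the rule against 61.4%. Overlap with KLF1 was 18.7% under the rule and 24.1% over 100 CPM, and with MPO 73.4% under the rule and 93.1% over 50 counts. The log2 difference of GATA2 in carrying cells (-0.08) became 0.12 over 50 counts, 0.58 over 100 CPM, 0.23 under the rule, 0.20 at 10% and 0.0695 at 2%, and ranged from -0.39 to 0.20 with 1 mouse left out, and KLF1 from -1.02 to 0.14. In protease cells KLF1 ranged from -1.80 to 0.28 with 1 mouse left out; over 50 counts KLF1 was 0.23, MPO -0.20, HDC -0.41 and SIGLECF 0.11, and over 100 CPM HDC was -0.28. None of these had passed the threshold. In SIGLECF cells PRSS34 was -1.18 in DESeq2 and ranged from -2.05 (without m606) to 2.28 (without m4528), and MCPT8 from -0.007 to 2.34 on the same omissions. The mean share of PRG2 cells over 10 counts was 0.265% without m4528 and 13.8% without m605. The causes were not tested. Protease cells under the rule at 5% and at 10% could not be fitted. Of the values under alternatives, 735 of single genes kept their direction and, where tested across genes, their side of the threshold. Another 101 came to pass it, 47 no longer passed it and 18 reversed. Of the values of comparisons, 64 counted as unchanged and 37 as moved. Shares of carrying cells were judged only on the mean of the late mice staying above that of the early ones, not on size or on single mice. The mean share with at least 1 member at day 17 was 47.9% over 10 counts. It was 90.6% over 0 counts, 18.6% over 50 counts and 19.1% under the rule, and these alternatives counted as unchanged.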
